A study of Mus musculus with 2 samples.

Results

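The 8 sperm surface ADAM genes Adam1a, Adam1b, Adam2, Adam3, Adam5, Adam18, Adam24 and Adam32 were followed through spermatogenesis in single-cell RNA profiles of mouse testis. They were taken by symbol, and all 8 were found among the 32285 genes of the deposited tables. The profiles came from whole dissociated testis, with 1 library for each of 2 genotypes. The control carried Dot1L fl/+ and no Cre. The conditional knockout (cKO) carried Dot1L fl/delta and Ddx4-Cre, in which the promoter of the germ cell gene Ddx4 drives the recombinase. Somatic cells were therefore not the target of the Cre, although by its label the cKO has a delta allele where the control has a wild-type one. The labels give neither the age of the mice nor how many contributed to a library. DOT1L methylates lysine 79 of histone H3, and the study asked what its loss does to spermatid differentiation.

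ADAM proteins are membrane proteins with a metalloprotease-like, a disintegrin and a cysteine-rich domain. In the testis a group of them is made in spermatocytes and spermatids, pairs up in the endoplasmic reticulum, and is cut and sorted before it reaches the sperm surface. ADAM2 pairs with ADAM1A in the endoplasmic reticulum and with ADAM1B on sperm, and ADAM3, which depends on these partners and on a set of chaperones, is needed for sperm to pass from the uterus into the oviduct.

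The genes differ in the part of the protein that makes an ADAM a protease. An active metalloprotease holds a zinc-binding motif with 3 histidines, a glutamate and a glycine at fixed places. The coding windows of that motif, 33 bases each, are shown to compare the members, from the GENCODE vM21 transcripts (GRCm38, the build of mm10), 5′ to 3′ on the coding strand, with the codons of the fixed residues that are kept in capitals.
Adam1a: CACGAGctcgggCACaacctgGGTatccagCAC
Adam1b: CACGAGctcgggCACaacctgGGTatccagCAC
Adam24: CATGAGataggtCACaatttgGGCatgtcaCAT
Adam2: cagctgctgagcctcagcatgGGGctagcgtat
Adam3: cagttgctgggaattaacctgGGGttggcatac
Adam5: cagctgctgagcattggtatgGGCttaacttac
Adam18: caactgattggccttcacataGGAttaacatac
Adam32: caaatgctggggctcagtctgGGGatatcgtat
Adam1a, Adam1b and Adam24 kept all 5 codons. Adam2, Adam3, Adam5, Adam18 and Adam32, whose windows were found by aligning each protein to that of Adam1a, kept only the glycine codon, 1 of 5. The windows of Adam1a and Adam1b were identical, and their whole proteins were 72.6% identical. The window of Adam1a starts at codon 370 and that of Adam1b at codon 338. The other pairs of members shared 29% to 41% of their residues.

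Adam18, Adam3, Adam5 and Adam32 stand in a row on the minus strand of chromosome 8. Adam18 lies at chr8:24602246-24674755, Adam3 at chr8:24677225-24725852, Adam5 at chr8:24727093-24824369 and Adam32 at chr8:24836140-24948804. The gaps between neighbours are 2469, 1240 and 11770 bases, and no other protein-coding gene is annotated in the 346559 bases they cover. Adam24 lies elsewhere on the chromosome, at chr8:40675077-40682199 on the plus strand, and Adam2 at chr14:66027329-66077733 on the minus strand. Adam1b (chr5:121500098-121503435) and Adam1a (chr5:121518576-121545482) are neighbours on the minus strand, 15140 bases apart. The coding transcripts of Adam1a and Adam1b have 1 exon and that of Adam24 has 2, against 20 to 22 in the other 5 genes. Adam1b lies inside Tmem116 on the opposite strand, which also overlaps Adam1a, and Mapkapk5 overlaps Adam1a on the same strand. The sources used here do not say whether counting used strand or introns. Of the 40-base words in the last 400 bases of the Adam1a transcript, 89.8% also occur in Gm42878, an overlapping gene that is not among the deposited features. The other 7 members shared none with any other gene, so Adam1a and Adam1b can be told apart by their 3′ ends.

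Captured transcripts were counted as UMIs (unique molecular identifiers). There were 155487418 UMIs in 17408 control barcodes and 156518838 in 20601 cKO barcodes. After filters 15623 and 18065 cells were kept, and germ cell classes were rebuilt by clustering without the 8 genes. Unnamed clusters, with 39.3% of the control and 23.8% of the cKO cells, entered no class. Clusters with germ cell markers but little RNA, another 10.9% and 30%, were held apart too. Levels are CPM, the UMIs of a gene summed over the cells of a class per 1000000 UMIs of that class, and every interval covers counting error only. With 1 library per genotype no difference has a replicate check, no test was made, and a difference over 1.5-fold is a rule of size. Spermatid clusters held almost entirely 1 library: control round spermatid-like cells lay in clusters 16 and 15 (817 and 922 control cells, 0 and 3 cKO cells) and cKO cells in clusters 14 and 17 (934 and 800 cKO cells, 6 and 2 control cells). Spermatocyte clusters were shared. Dot1l itself was lower in the cKO library in each of the 5 germ cell classes, from 101.7 to 47.21 CPM in mid to late spermatocyte-like cells and from 43.24 to 4.635 CPM in round spermatid-like cells (log2 ratios −1.11 and −3.22). Across the 3 spermatocyte clusters, in the order of their stage markers, its log2 ratio was −0.14, −1.24 and −2.83.

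In the control library 6 of the 8 genes came on in mid to late spermatocyte-like cells and 2 in round spermatid-like cells. Onset was the earliest class with at least 25% of the gene's highest class level and at least 2 times its level in somatic cells. These were 207 control and 630 cKO macrophage-, Leydig- and mesenchymal-like cells, in which transcripts of germ cell genes stand for free RNA. Adam1b, Adam2, Adam3, Adam5, Adam18 and Adam32 made up the first group, and Adam1a and Adam24 the second. The plot of levels by class shows the 2 groups. All 5 genes without the zinc-binding codons were in the first group, and of the 3 genes with them, only Adam1b was.

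**Figure D1:**
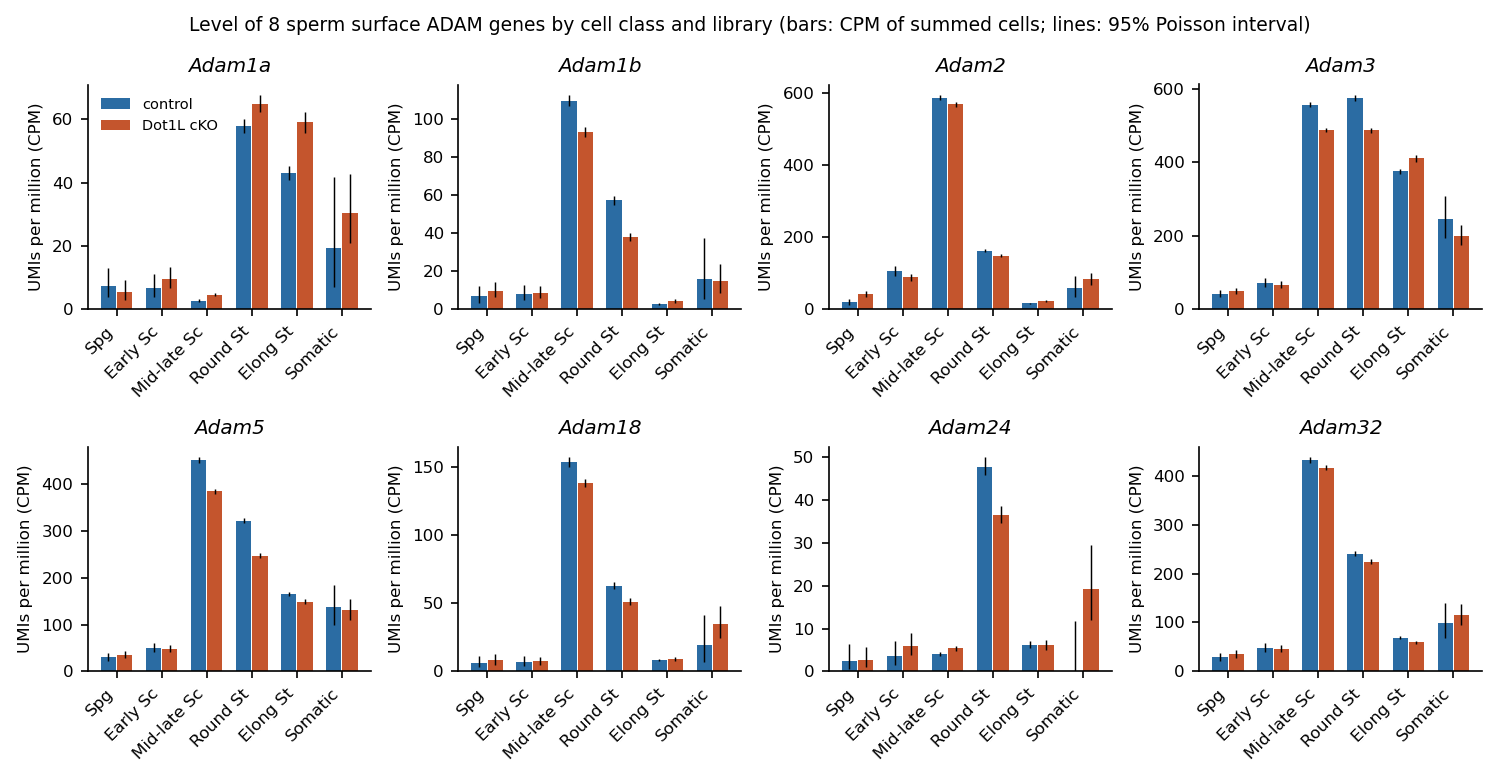
Each panel plots one gene, with CPM on the vertical axis and the cell class on the horizontal axis (Spg spermatogonium-like, Sc spermatocyte-like, St spermatid-like cells), blue bars for the control and orange bars for the Dot1L cKO library. Adam1a and Adam24 are highest in round spermatid-like cells, at 57.85 and 47.74 CPM in the control library, and the other genes are already high in mid to late spermatocyte-like cells.

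Adam2, whose protein pairs with both ADAM1A and ADAM1B, had the earliest rise in the control library. Its control level was 19.02 CPM in spermatogonium-like, 106.3 in early spermatocyte-like, 587 in mid to late spermatocyte-like, 162.7 in round and 16.19 in elongating spermatid-like cells. The cKO levels were 42.39, 88.07, 568.4, 148.4 and 22.1 CPM. In both libraries the gene was highest in mid to late spermatocyte-like cells, and at 18.1% and 15.5% of that level in early spermatocyte-like cells. Early spermatocyte-like cells held 0.659 Adam2 UMIs per control cell and 0.516 per cKO cell, against 0.087 and 0.143 in somatic cells, which should lack the gene. With classes taken from a marker score per cell, or with a finer clustering, Adam2 came on in early spermatocyte-like cells, and with the finer clustering Adam18 and Adam32 did too.

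Adam3 encodes the protein needed for passage into the oviduct. Of the 6 genes that came on in spermatocytes, it kept the most of its highest CPM in elongating spermatid-like cells, 65.3% in control and 84.2% in cKO cells. Per cell it fell more steeply. Over mid to late spermatocyte-like, round and elongating spermatid-like cells it had 17.1, 13.9 and 3.59 UMIs per control cell. In the cKO library it had 13.3, 10.2 and 2.99. Median depth was 24184 and 21738 UMIs in the spermatocyte class, against 7647 and 5786 in the elongating class. Control levels were 556.2 CPM in mid to late spermatocyte-like, 575.2 in round and 375.6 in elongating spermatid-like cells, and cKO levels 487.4, 487.1 and 410.4. In the control the mid to late spermatocyte-like level was 96.7% of the round spermatid-like one, and in the cKO library the round spermatid-like level was 99.9% of the other. Adam5, whose product is found with ADAM2 and ADAM3, went from 451.4 to 322.3 and 165.8 CPM over these 3 classes in the control and from 385 to 247.2 and 149.3 in the cKO library. Both genes thus remained well above their spermatogonium-like level (42.34 and 30.07 CPM in the control) in elongating spermatid-like cells.

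Adam18 and Adam32, surface ADAMs of sperm with less known roles, and Adam1b fell off sooner. Adam32 had 431.3, 240.5 and 68.66 CPM in control and 416, 224.1 and 59.69 in cKO cells. Adam18 had 153.9, 63.11 and 8.442 CPM in control and 138.5, 51.29 and 8.889 in cKO cells. Adam1b, whose protein pairs with ADAM2 on sperm, had 109.6, 57.18 and 2.775 CPM in control and 93.24, 37.94 and 4.274 in cKO cells. In elongating spermatid-like cells Adam1b was at 0.0265 UMIs per control cell and 0.0311 per cKO cell, close to the 0.0242 and 0.0254 of somatic cells. No expression of Adam1b beyond free RNA was therefore detectable there at this depth.

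Adam1a, whose protein pairs with ADAM2 in the endoplasmic reticulum, and Adam24, a protease found on mature sperm, followed a different course. Adam1a was at 2.657 CPM in control mid to late spermatocyte-like cells, 57.85 in round and 42.9 in elongating spermatid-like cells, and at 4.632, 64.95 and 59.01 in the cKO library. Adam24 was at 4.035, 47.74 and 6.245 CPM in control and 5.374, 36.58 and 6.12 in cKO cells, so it was high in 1 class only. In the cKO library Adam24 reached no onset by the rule, because its somatic level was 19.32 CPM (21 UMIs in 630 cells). In the control it was 0 of 312646 somatic UMIs, which allows up to 11.8 CPM. Per cell, the cKO somatic level was 0.0333 UMIs and the round spermatid-like level 0.763, and after subtraction of estimated free RNA the onset was in round spermatid-like cells in both libraries. Neighbours on chromosome 5 with the same zinc-binding window, Adam1a and Adam1b thus had their highest level in different classes in both libraries.

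Within the spermatocyte class the shared clusters put the genes in a finer order on the CPM scale, which was not kept per cell. Over both libraries, cluster 9 had high Piwil1 and low Ccna1 (751.6 and 29.48 CPM), cluster 13 had both (240.3 and 208), and cluster 6 had Ccna1 and rising Acrv1 (220.1 and 175.5). On the CPM scale Adam2 and Adam32 were highest in cluster 9. Their control levels over clusters 9, 13 and 6 were 729.9, 604.1 and 345.2 CPM and 477.4, 444 and 339.8 CPM. Adam18 was highest in cluster 13, with 140.1, 190.6 and 104.4 CPM. Adam5 was nearly level, with 413.5, 488 and 437.4 CPM. Adam3 and Adam1b were lowest in cluster 9, with 326.6, 652.3 and 710.1 CPM and 55.07, 137.7 and 136.1 CPM. Adam24 was at 1.701 and 0.4976 CPM in clusters 9 and 13 and at 14.17 in cluster 6, and Adam1a at 1.936, 0.8143 and 7.212. The cKO levels had the same order over the 3 clusters for each gene except Adam5, which was at 379, 412.6 and 348.8 CPM, with its lowest level in cluster 6. Per cell, all 6 genes that came on in this class were highest in cluster 13 in both libraries. Over clusters 9, 13 and 6 Adam2 had 26, 27.1 and 5.86 UMIs per control cell, and Adam3 had 11.6, 29.3 and 12.1. Cluster 13 also had the highest median depth of the 3 clusters.

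**Figure D2:**
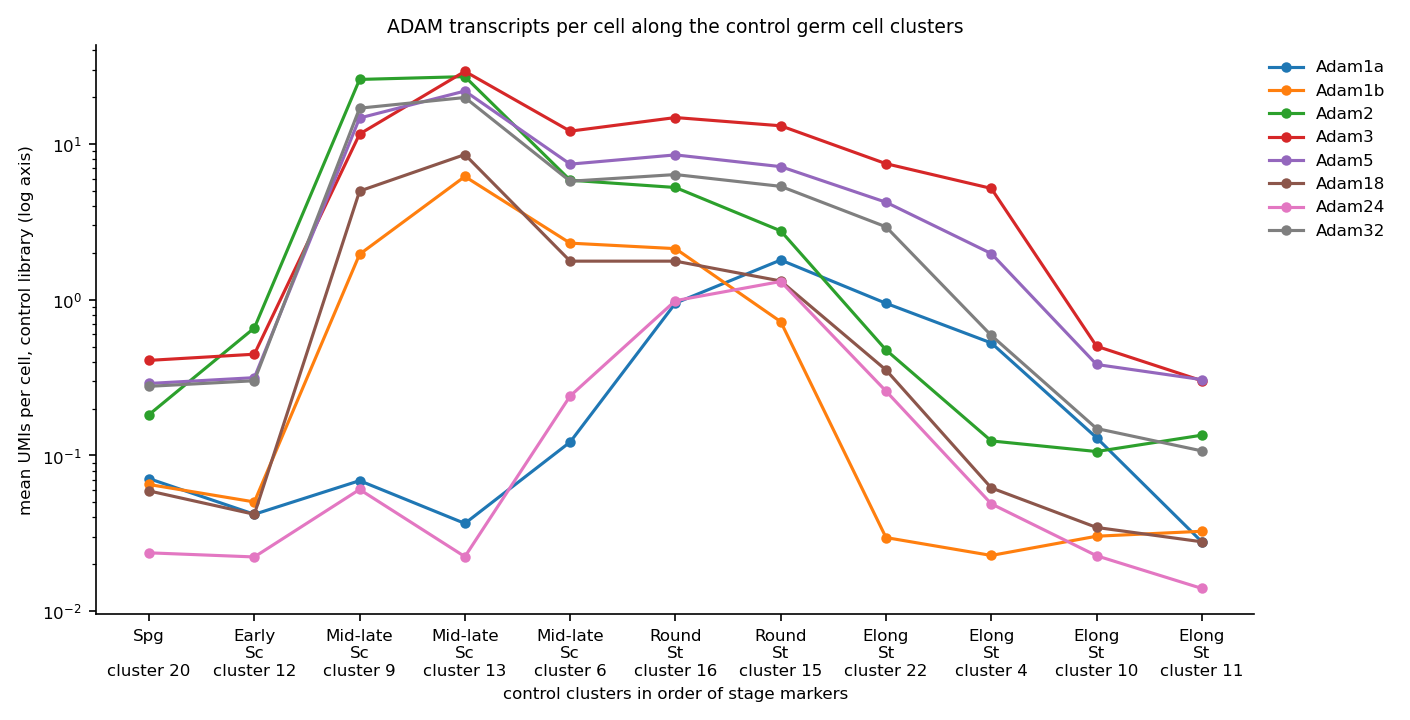
Mean UMIs per cell of each gene (vertical, log axis) in the control clusters of at least 100 cells, ordered along the horizontal axis by class and within a class by stage markers or, for elongating cells, by falling depth. Adam2 has 26 UMIs per cell in cluster 9 and is highest in cluster 13, at 27.1. Adam1a and Adam24 rise only from cluster 6 on. Depth differs between clusters, so the points are amounts per captured cell.

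The genes whose levels over 21 control clusters were most like those of each member were named by the Pearson correlation r of log2(CPM + 1). The clusters share 1 library and differ in depth, and beside the germ cell classes they include unnamed, low-RNA and Leydig-like clusters. The values are therefore descriptions and do not follow spermatogenesis alone. Adam2 was most like Clgn (r = 0.97), the chaperone calmegin that ADAM2 needs to pair with its partners. Adam1a was most like Tescl, Dnajc5b and Ace, the testis form of angiotensin-converting enzyme (0.96 each). Adam5 was most like Ldhc, the testis lactate dehydrogenase (0.98), and Adam32 most like Ldha (0.97). Adam3 was most like Ube2d2b (0.98), Adam1b like Galnt3 (0.98), Adam18 like Abca14 (0.97) and Adam24 like Chrna9 and the acrosomal gene Acrv1 (0.95 and 0.94). Among the members, Adam3 and Adam5 had r = 0.94, Adam18 and Adam32 0.93, Adam1b and Adam2 0.91, and Adam1a and Adam24 0.76. Adam1a and Adam1b had r = −0.33.

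In spermatogonium-like cells 4 members reached the minimum of 50 UMIs in both libraries together that a gene needed to be measured. Adam2 alone was over 1.5-fold higher in the cKO library (log2 ratio 1.16, 31 and 109 UMIs), where 10.3% of the 9318 genes measured were, and none was lower, where 5.09% were. Adam2 had 0.183 UMIs per control and 0.331 per cKO cell in this class, and somatic cells 0.087 and 0.143. At full depth, 17.8% of control and 16.7% of cKO cells of this class held any Adam2 UMI. With cells thinned to the same depth the shares were 4.17% and 6.19%. Median depth in this class was 8709 UMIs in control and 6722 in cKO cells. The share was thus not larger in the cKO library at full depth, but was larger with thinned cells. At full depth, cells with any Adam2 UMI held more of them on average in the cKO library. In early spermatocyte-like cells 6 members were measured and none was over 1.5-fold higher or lower, where 8.39% and 3.48% of 9569 genes were. Adam2 was at −0.27 there.

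In mid to late spermatocyte-like cells the 6 genes that are on in this class had log2 ratios of cKO over control from −0.23 to −0.05, each a little lower in the cKO library. Adam5 was at −0.23 (95% interval −0.26 to −0.20), Adam1b at −0.23 (−0.29 to −0.18) and Adam3 at −0.19 (−0.21 to −0.17). Adam2 and Adam32 were at −0.05 each. Over clusters 9, 13 and 6 Adam1b was at 0.03, −0.19 and −0.25, and Adam3 at −0.04, −0.14 and −0.19. Adam2, Adam5, Adam18 and Adam32 were below 0 in each of these clusters. Cluster 9 held 479 control and 719 cKO cells, cluster 13 held 492 and 486, and cluster 6 held 686 and 814. With cells thinned to 2000 UMIs, Adam18 was at 0.01 in the whole class. Adam24 and Adam1a, whose onset is later, were higher in the cKO library, Adam24 at 0.41 (0.15 to 0.68) from 205 and 297 UMIs. No member was over 1.5-fold lower, where 4.22% of the 16890 genes measured in this class were. Only Adam1a was over 1.5-fold higher, where 16% of all genes were.

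Adam1a in this class rested on 135 control and 256 cKO UMIs, and its log2 ratio was 0.80 (0.50 to 1.11). By cluster it was 0.09 in cluster 9, 1.28 in cluster 13 and 0.94 in cluster 6, where its levels were 7.212 and 13.88 CPM. It had 0.0815 UMIs per control cell and 0.127 per cKO cell, and somatic cells 0.029 and 0.0524, from only 6 and 33 UMIs. With estimated free RNA subtracted its log2 ratio was 0.98, and with the somatic UMIs per cell subtracted 0.69. With the class taken from marker scores it was 0.50, under 1.5-fold.

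In round spermatid-like cells 7 of the 8 genes were lower in the cKO library and Adam1a was slightly higher. The median log2 ratio of the 8 was −0.27, against 0.02 over all 16249 genes measured. Only Adam1b was over 1.5-fold lower, where 9.72% of all genes were, and none was over 1.5-fold higher, where 20.6% were. Adam1b went from 57.18 to 37.94 CPM, a log2 ratio of −0.59 (−0.69 to −0.50), at the edge of the rule. Over 12 other ways of processing its log2 ratio ran from −0.90 to −0.20, and in 5 of them it was under 1.5-fold. Among the 12 are UMI minimums of 10 and 200, which set only which genes are measured and cannot change a ratio.

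The other round spermatid-like differences were smaller. Adam5 had a log2 ratio of −0.38 (−0.42 to −0.34), Adam24 −0.38 (−0.49 to −0.28), Adam18 −0.30 (−0.39 to −0.21) and Adam3 −0.24 (−0.27 to −0.21). Adam2 was at −0.13, Adam32 at −0.10 and Adam1a at 0.17 (0.08 to 0.25). Adam1b, Adam3, Adam5, Adam18, Adam24 and Adam32 stayed below 0 in all 12 other ways of processing, of which the UMI minimums could not change a ratio. Adam2 turned above 0 in 2 of the 12, with the finer clustering and with the class taken from marker scores. Adam5 ran from −0.40 to −0.29 over them and Adam3 from −0.28 to −0.18.

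**Figure D3:**
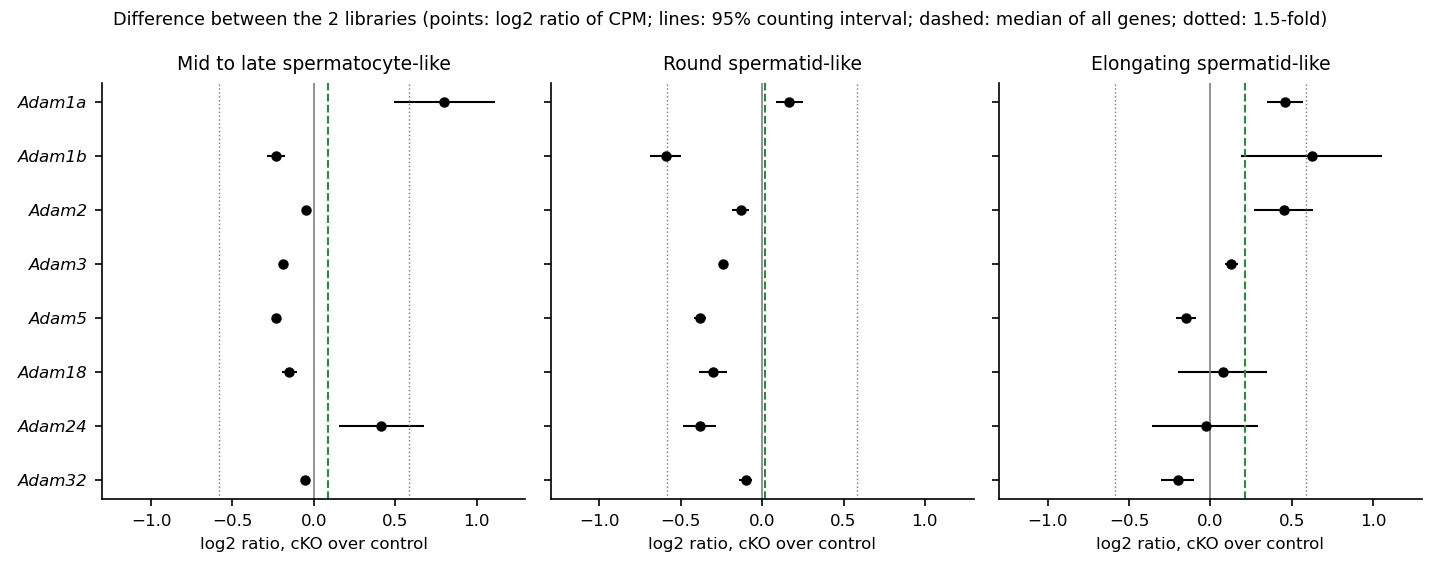
Log2 ratio of CPM, cKO over control (horizontal axis), for each gene (vertical axis) in 3 classes, with 95% counting intervals, the median of all genes as a dashed line and 1.5-fold as dotted lines. In round spermatid-like cells 7 genes lie left of 0 and only Adam1b passes the dotted line, at −0.59.

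Since the libraries lay in different clusters, the round spermatid-like clusters were also set side by side by their level of Tnp2, the transition protein gene, a pairing chosen after seeing the data. Control cluster 16 and cKO cluster 14 had low Tnp2 (566.9 and 494.3 CPM) and close Ccna1 (112.1 and 115.1 CPM). In this pair Adam1b had a log2 ratio of −0.57 (95.37 to 64.34 CPM), Adam5 −0.43 (380.9 to 282.5) and Adam3 −0.29 (663.6 to 542.4). Adam1a was at 0.50 (42.51 to 60.13) and Adam24 at −0.01 (44.1 to 43.86). Acrv1, a marker of round spermatids, was higher in the cKO cluster at 0.26.

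In the pair with higher Tnp2, control cluster 15 and cKO cluster 17, the log2 ratios were −1.66 for Adam1b (27.98 to 8.838 CPM), −0.82 for Adam24 (50.54 to 28.61), −0.60 for Adam2 and −0.56 for Adam18. Adam5 and Adam3 were at −0.41 and −0.25, and Adam1a at 0.02. In this pair the stage markers differed too: Tnp2 was 2.81-fold higher in the cKO cluster (log2 ratio 1.49), and Ccna1 and Acrv1 were at 0.667 and 0.635 times their control level. Genes that fall through the round stage in both libraries, such as Adam1b and Adam2, are thus compared at unlike marker levels, and the part of stage in their difference was not tested. Adam3 and Adam5 each had almost the same log2 ratio in both pairs, and Adam32 was at −0.12 and −0.19.

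**Figure D4:**
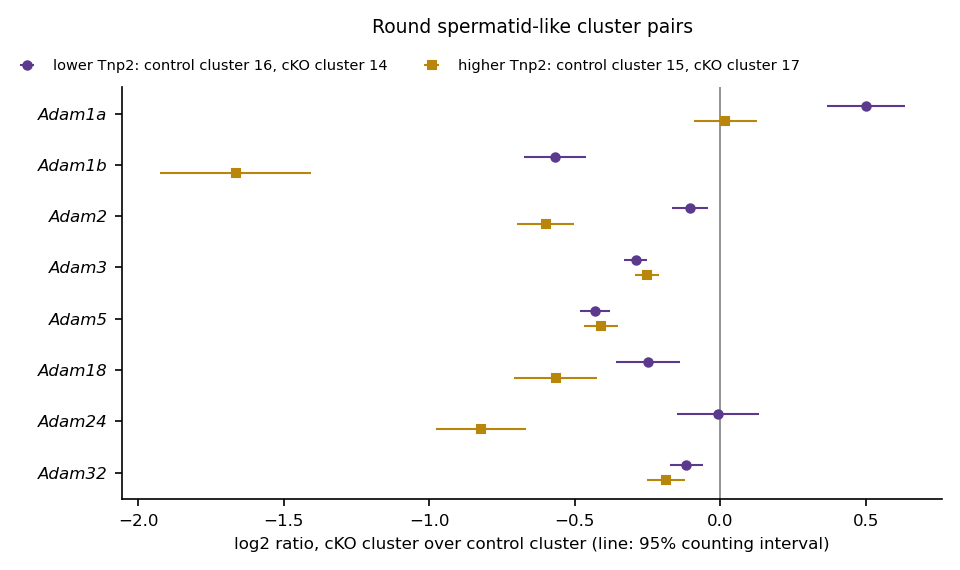
Log2 ratio of cKO over control cluster (horizontal axis, lines 95% counting intervals) for each gene (vertical axis) in the round spermatid-like pair with lower Tnp2 (circles) and the pair with higher Tnp2 (squares). Adam3 and Adam5 each lie at almost the same place in both pairs, and Adam32 moves little (−0.12 and −0.19). Adam1b goes from −0.57 to −1.66 and Adam24 from −0.01 to −0.82.

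In elongating spermatid-like cells the genes went both ways. The median of the 8 log2 ratios was 0.10, against 0.21 over 11639 genes. Of the genes still well expressed, Adam3 was at 0.13 (0.09 to 0.17), Adam1a at 0.46 (0.35 to 0.57), Adam5 at −0.15 (−0.21 to −0.09) and Adam32 at −0.20 (−0.30 to −0.10). Adam1b alone was over 1.5-fold higher, at 0.62 (0.19 to 1.06) from 96 and 88 UMIs, at its background level. Over all genes 27.1% were over 1.5-fold higher and 13.2% lower in this class. The median depth was 7647 UMIs in control and 5786 in cKO cells, free RNA was estimated at 7.64% and 9.88% of their UMIs, and of their clusters only cluster 11 held at least 20 cells of each library (215 and 871). Over 13 other ways of processing Adam1a kept the sign of its log2 ratio (0.25 to 0.78), as did Adam5 (−1.51 to −0.05). The UMI minimums among the 13 could not change a ratio. Adam3 and Adam32 each changed sign in 3 of the 13. Adam3 was below 0 with median-of-ratios scaling (−0.08), without the 50 most abundant genes in the totals (−0.007) and with clusters given the same weights (−0.63). In this class the same-weights setting left cluster 11 alone, where median depth was 1177 UMIs in control and 2586 in cKO cells. It also gave the −1.51 of Adam5 and the 0.78 of Adam1a. Adam32 was above 0 with the finer clustering (0.23), with classes from marker scores (0.16) and with cells thinned to 2000 UMIs (0.22).

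The proteins that fold and mature ADAM3 were followed beside the members, as a list of 16 genes for chaperones and for enzymes or membrane proteins without which sperm fail in migration. In round spermatid-like cells 15 were measured, with a median log2 ratio of −0.04. Over 1.5-fold higher were Calr3, the testis calreticulin that ADAM3 needs (93.57 to 167.7 CPM, 0.84), and the serine protease genes Prss37 (75.75 to 174.2 CPM, 1.20) and Prss55 (117.1 to 245.8 CPM, 1.07). None was over 1.5-fold lower. These 3 of 15 stand beside 20.6% of all genes over 1.5-fold higher in the class, and 9.72% lower. Clgn was at −0.31 (404.3 to 325.1 CPM) and Ace at −0.25. In elongating spermatid-like cells 13 were measured. Calr3, Prss37 and Cmtm2a were over 1.5-fold lower there (−0.87, −0.73 and −0.68), and Tex101, a surface protein of germ cells, was higher (0.68), where 13.2% of all genes were lower and 27.1% higher. Calr3 and Prss37 thus differed in opposite directions in the round and the elongating class. From round to elongating cells Calr3 went from 93.57 to 127.1 CPM in control and from 167.7 to 69.6 in cKO cells. Prss37 went from 75.75 to 155.1 and from 174.2 to 93.79. The libraries lay mostly in different spermatid clusters with unlike marker levels, and the part of stage in these differences was not tested. In mid to late spermatocyte-like cells 16 were measured. Only Pdilt, a disulfide isomerase of the testis named after its value was seen, was over 1.5-fold higher (0.68), and none was lower, where 16% and 4.22% of all genes were.

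The 8 gamete fusion genes, which act when the sperm meets the egg membrane, had a median log2 ratio of −0.04 in round spermatid-like cells, with none over 1.5-fold higher or lower, where 20.6% and 9.72% of all genes were. In mid to late spermatocyte-like cells 4 of the 8 were over 1.5-fold higher, where 16% of all genes were. They were at low control levels there, 1.339 CPM for Tmem95, 2.697 for Spaca6, 7.047 for 4930451I11Rik and 22.93 for Llcfc1, the last of which was named after its value was seen. The part of free RNA in their ratios was not tested. In elongating spermatid-like cells Tmem95 and 4930451I11Rik were over 1.5-fold higher (0.88 and 0.63) and Spaca6 lower (−0.62), against 27.1% and 13.2% of all genes.

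Of 12 other testis ADAM genes, all measured in the 3 classes, Adam6a and Adam6b were over 1.5-fold higher in round spermatid-like cells (0.82 and 0.73) and Adam34 lower (−0.60, 52.7 to 34.82 CPM), against 20.6% and 9.72% of all genes. In mid to late spermatocyte-like cells 7 of the 12 were over 1.5-fold higher, where 16% of all genes were, with a median log2 ratio of 0.81 over the list. The 7 were at low control levels, from 0.4134 CPM (Adam6b) to 3.366 CPM (Adam20). Adam6b, the lowest, had 21 UMIs in 1657 control and 64 in 2019 cKO cells of this class. Somatic cells held 5 Adam6b UMIs in 207 control and 17 in 630 cKO cells. The part of free RNA in the ratios of this list was not tested. The best expressed genes of the list, Adam30 and Adam34, named after their values were seen, were lower in the cKO library (66.85 to 58.26 and 20.49 to 14.78 CPM, log2 ratios −0.20 and −0.47). In elongating spermatid-like cells Adam20, Adam26b and Adam39 were over 1.5-fold higher (0.70, 1.09 and 0.72), and Adam4, Adam6a and Adam34 lower (−0.97, −0.88 and −0.88), against 27.1% and 13.2% of all genes. Of 11 ADAM genes of broad expression, 7 were measured in round spermatid-like cells, 2 of them over 1.5-fold higher and none lower, against 20.6% and 9.72% of all genes. The 2, named after their values were seen, rest on few UMIs: Adam9 on 25 control and 39 cKO UMIs and Adam10 on 26 and 53.

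**Figure D5:**
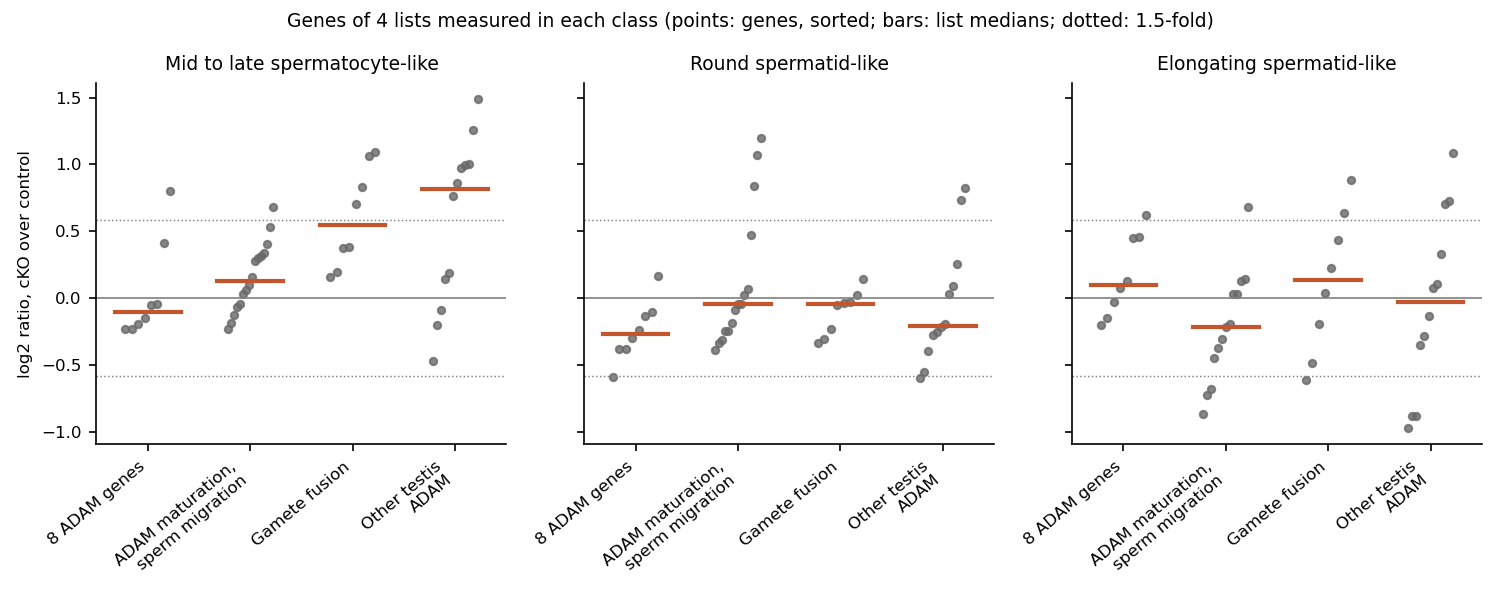
Log2 ratio of cKO over control (vertical axis) of each measured gene of 4 lists (horizontal axis) in 3 classes, with list medians as bars and 1.5-fold as dotted lines. In mid to late spermatocyte-like cells the 8 ADAM genes center on −0.10, and the gamete fusion and other testis ADAM genes on 0.54 and 0.81. For the gamete fusion and other testis ADAM genes the part of free RNA was not tested.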

How the data were processed

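UMI counts per gene and barcode were used as deposited, from a 3′ droplet kit; per the file headers the authors made them with Cell Ranger 7.0.0. The submitters' processing notes name mm10 as build and Seurat 4.1.0 as a tool. Whether intronic reads were counted is not given in the sources used here. The members, gene lists and settings were chosen with earlier results of these data known.

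Barcodes with at least 500 UMIs and 300 genes and at most 10% mitochondrial UMIs were kept. Doublets with a score over 0.2 against simulated doublets, 274 control (1.72%) and 386 cKO cells (2.09%), were removed. That threshold was set after the scores were seen and caught 61.3% and 55.1% of simulated doublets. The libraries shared 102 barcodes. With scanpy 1.11.5, counts per 10000 UMIs were log-transformed, and the 2000 most variable genes gave 30 principal components, 20 neighbours and Leiden clusters at resolution 1.0, without batch integration. The 8 members, Dot1l, transition protein, protamine and testis histone genes were left out of the clustering.

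A cluster was called X-like when it had the most markers, at least 3, over 1.5-fold higher than in other cells. Somatic names were not given where spermatid markers reached over 66.7% of their level in all cells, as in clusters 0, 1, 7 and 27, which had 10, 5, 10 and 8 Sertoli or erythroid markers higher. Cluster 23 had 1 marker. These thresholds were set after the clusters were seen. Clusters 6, 9 and 13 formed the mid to late spermatocyte-like, 14 to 17 the round and 3, 4, 10, 11 and 22 the elongating spermatid-like class, with 1657, 1747 and 3616 control and 2019, 1737 and 2829 cKO cells. Cluster 9 had as many early as mid to late spermatocyte markers. Clusters with a median depth under 1/3 of the mean of their class were held apart, elongating ones excepted. Macrophage-, Leydig- and mesenchymal-like barcodes under 5000 UMIs (207 control, 630 cKO) served as the somatic background, a limit set after seeing the data because deeper ones held germ cell RNA. Free RNA, estimated from spermatid markers in them, was 730.9 UMIs per control and 718.7 per cKO cell, at most 12.3% of the UMIs of a germ cell class.

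UMIs were summed per class and library. Genes counted as measured when both libraries together held at least 50 UMIs. CPM carry exact Poisson and log2 ratios exact binomial 95% intervals, tested on simulated data. Named genes were the members, list genes over 1.5-fold in spermatid-like cells, and the 3 genes most like each member over clusters of at least 100 control cells, of which the text gives part. Genes named outside this rule are marked in the text; Piwil1, Ccna1, Acrv1 and Tnp2 are given as stage markers. Alternatives are in the closing section. Positions and coding sequences came from GENCODE vM21, in which 32158 of 32285 identifiers were found.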

Additional observations from a re-analysis of the deposited data

How the results depend on the processing

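The count of 6 members with onset by mid to late spermatocyte-like cells was 6 under each of the 6 alternatives tried, one of them (resolution 2.0) chosen after seeing the data. The counts of members over 1.5-fold rest on 1 gene per class and direction and moved with many settings. The 1 member higher in mid to late spermatocyte-like cells became 0 with marker score classes, with cells thinned to 2000 UMIs and at a fold of 2, and 2 at a smaller fold. The 1 member lower in round spermatid-like cells became 0 without the 50 most abundant genes in the totals, at resolution 2.0, with marker score classes, with doublets kept, with low-RNA clusters put into their classes (chosen after seeing the data) and at a fold of 2, and 3 at a smaller fold. The 1 member higher in elongating spermatid-like cells became 0 with median-of-ratios scaling, without the 50 most abundant genes, at a minimum of 200 UMIs, at resolution 2.0, with marker score classes, with free RNA subtracted and at a fold of 2. It became 2 with thinned cells and 3 at a smaller fold. Lower in that class, from 0, were 1 with free RNA subtracted, and 4 each with clusters given the same weights and with somatic UMIs per cell subtracted (chosen after seeing the data). The log2 ratio of Adam1b in elongating spermatid-like cells turned to −0.27 with marker score classes and −1.76 with clusters given the same weights. That last setting used only clusters with at least 20 cells of each library, so in this class its values are those of cluster 11 alone. Adam1b had 7 control and 21 cKO UMIs there, under the minimum for a measured gene. The cause of the other changes was not tested, except where the gene fell under the UMI minimum, so that its fold was not measured (Adam1a in thinned mid to late spermatocyte-like cells, and Adam1b in elongating spermatid-like cells at a minimum of 200 UMIs and with free RNA subtracted), and that other folds change the rule itself. Giving clusters the same weights had no value in round spermatid-like cells, where no cluster held 20 cells of each library. No paired analysis was possible because each genotype has 1 library, and for the same reason no replicate could be left out. Adam1a and Adam24 in spermatocyte-like cells and Adam1b in elongating spermatid-like cells were at low levels, and their ratios rest on few UMIs.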
